A study of Mus musculus with 16 samples.

Results

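The nuclear genes that code subunits of the mitochondrial oxidative phosphorylation complexes were followed across sorted mouse muscle cells. Members were taken by gene symbol, as every row that starts with Nduf followed by the letter a, b, c, s or v and a number, with Uqcr, with Cox4 to Cox8 or with Atp5, together with Sdha, Sdhb, Sdhc and Sdhd. This gave 84 of 24341 genes listed, of which 37 fell under complex I, 4 under complex II, 8 under complex III, 18 under complex IV and 17 under complex V. The pattern has edges. Ndufa4, now counted with complex IV, and Ndufa4l2, a relative of it that is not a standard subunit, both fall under complex I, Atp5s and Atp5sl carry older names of factors outside the complex V enzyme, and the subunits coded by mitochondrial DNA are not analysed here. Ndufab1 and Cyc1 are subunits that the pattern misses, and they are described with the neighbouring pathway lists.

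RNA was measured in 16 libraries, and values are FPKM, a level per transcript length that is scaled to library size. The p53WT, p53KO, p53WT_3dai and p53KO_3dai groups had 3 libraries each, and the 2 G2 groups, p53WT_G2 and p53KO_G2, had 2 each. All mice were C57BL/6 and between 2 and 3 months of age. Cells were sorted for the surface markers CD34 and alpha-7 integrin and against CD31, CD11b, CD45 and Sca-1, a gate used for muscle stem cells. Cells of the groups without a suffix and of G2 were taken from hind limb muscles. Those of 3dai were from 1 muscle of the leg, the tibialis anterior, and the muscle therefore changes along with the condition in every comparison of 3dai with another suffix. What 3dai and G2 stand for, how the p53 knockout was made, whether animals were pooled and whether any group carried a Dmd mutation cannot be read from the labels, although the series title names a Duchenne model. The labels number the replicates without tying them to animals, and the p-values therefore cover the spread among these libraries, which may be technical.

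Oxidative phosphorylation makes most of the ATP of resting and differentiated muscle. Complex I takes electrons from NADH and complex II from succinate, both pass them through ubiquinone to complex III, cytochrome c carries them to complex IV, where oxygen is reduced, and complex V makes ATP from the proton gradient built along the way. Muscle stem cells at rest hold few mitochondria, and activation and differentiation are known to bring more of them. Several complex IV subunits exist in a widely expressed form and in a form of heart and skeletal muscle, lung, or testis.

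Trp53, the gene named by the knockout, lay between 6.34 and 12.2 FPKM in the p53KO libraries and between 39.9 and 53.9 in p53WT, and in each suffix every p53KO library was below every p53WT library. Cd34 and Itga7 of the positive gate were found in all 16 libraries (at least 27.1 and 81.1 FPKM), while Pecam1, Itgam and Ptprc of the negative gate reached at most 2.09, 0.286 and 0.00898, and Ly6a (Sca-1) at most 6.6. Summed FPKM per library lay between 423303 and 616485, and the files do not tell how deeply a library was sequenced. Some libraries stood apart for the members as a whole. Within p53WT, replicate 3 was the lowest of its group for 64 of the 81 members tested and replicate 2 the highest for 57. In p53WT_3dai, replicate 3 was the highest for 67, and in p53KO_G2, of which there are only 2 libraries, replicate 1 was the higher for 64. In p53WT replicate 3 the members lay a median of -0.37 log2 from their group means and 83 ribosomal protein genes -0.47, against 0.00 for all genes. In p53WT_3dai replicate 3 the corresponding deviations were 0.33 and 0.25. Counts for the suffix comparisons are also given without these libraries.

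Of the 84 members, 81 reached 1 FPKM in at least 2 libraries and were tested. The 3 that did not were Cox7b2 and Cox8c, forms of complex IV subunits known from testis and listed at 0 in all 16 libraries, and Atp5l, the g subunit of complex V, which reached at most 1.73 FPKM, in p53KO replicate 3. The gene annotation lists 2 named pseudogenes of Atp5l. It also lists 2 of Uqcrh, which stood at 222 FPKM or more in every library. Of the members, 0 had a value with a status other than OK. Whether a listed 0 is a failed estimate of a gene with near-identical copies was not tested. Levels of the tested members were spread widely. Highest over the 16 libraries in mean were Ndufa4 in complex I (377 FPKM), Sdhb in II (143), Uqcrh in III (491), Cox4i1 in IV (689) and Atp5b in V (1028). Lowest were Ndufa4l2 (6.43), Sdha (91.3), Uqcrc2 (134), Cox6a2 (0.765) and Atp5s (2.93), in the same order. Atp5b, the catalytic beta subunit, and Cox4i1, the widely expressed form of subunit 4, were thus the leading transcripts of their complexes.

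The main pattern was a broad rise from the cells with no suffix to the 3dai cells. Together the members made up between 1.27% and 1.93% of the summed FPKM in the 6 libraries with no suffix, between 3.43% and 4.32% in the 6 libraries of 3dai and between 3.13% and 3.66% in the 4 of G2. The 3dai and G2 ranges overlap each other, and both lie above that with no suffix. In p53WT_3dai against p53WT, 64 of 81 members rose and 2 fell, where of all 12954 genes tested 31.8% rose and 20.9% fell. Here and below, rose, fell and called mean an adjusted p under 0.05 in limma. The median difference of the members was 1.5 on the log2(FPKM + 1) scale, which shrinks changes of genes near 0, against 0.23 for all genes. In p53KO_3dai against p53KO, 66 rose and 3 fell, where 30.4% and 22.7% of all genes did, and the medians were 1.62 and 0.14. Without p53WT replicate 2 the p53WT counts were 65 higher and 2 lower, without p53WT replicate 3 they were 61 and 2, and without p53WT_3dai replicate 3 likewise 61 and 2. Scaling libraries by the median of ratios, which moved the median of all genes from 0.23 to -0.06 in p53WT and from 0.14 to -0.09 in p53KO, gave 57 higher and 2 lower members in p53WT and 59 and 4 in p53KO. Relative to all genes, the members' median was higher by 1.27 and 1.48 as first fitted and by 1.17 and 1.38 under that scaling.

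**Figure D1:**
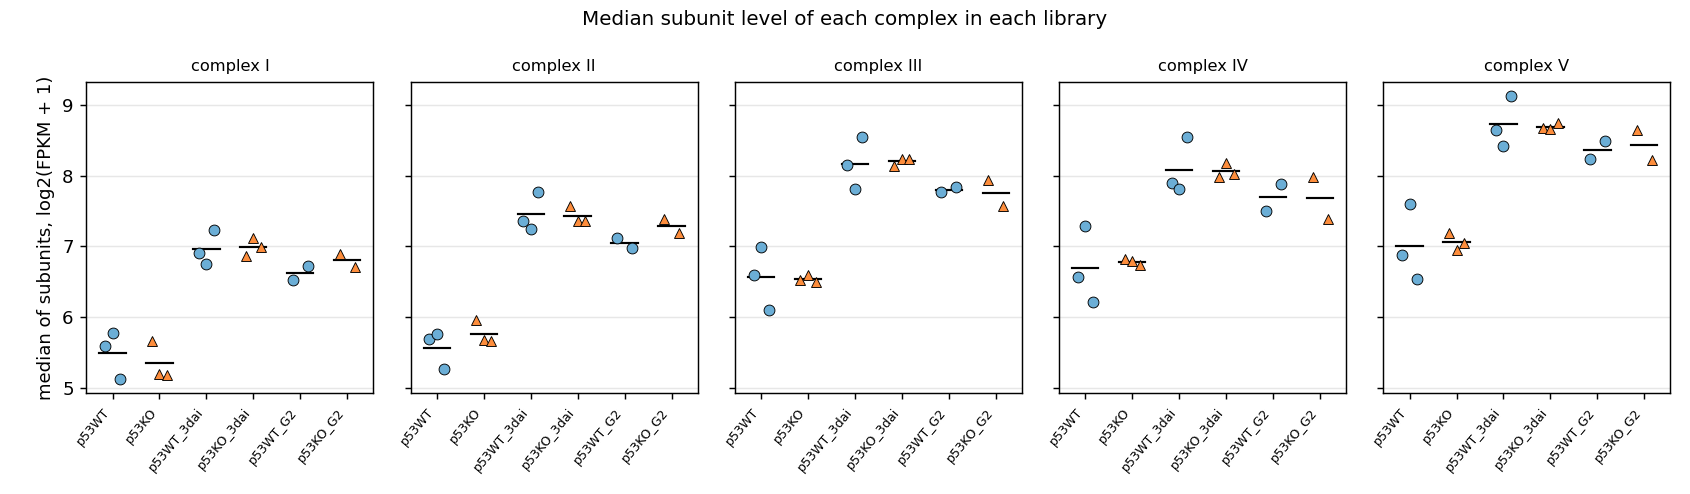
Median level of the tested subunits of each complex on the log2(FPKM + 1) scale, with 1 point per library (circles p53WT, triangles p53KO) and a line at the group mean. In all 5 complexes every 3dai and G2 library lies above every library with no suffix.

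Most members rose in both genotypes. Of the 81 members, 62 were called higher in 3dai in both genotypes, 2 in p53WT alone (Ndufa13 and Ndufb4), 4 in p53KO alone (Atp5g2, Ndufb11, Ndufv3 and Uqcrb) and 13 in neither. The like shares of all genes were counted only for each genotype by itself, not for both together. A call in 1 genotype alone is no evidence of a difference between them, and no member passed the direct test of that difference, given further on. Complexes II and III rose nearly whole, with 4 of 4 and 7 of 8 members in p53WT and 4 of 4 and 8 of 8 in p53KO. Complex I rose in 30 of 37 members in each genotype (medians 1.59 and 1.79) and complex V in 13 and 14 of 16 (1.62 and 1.83). Complex IV rose in 10 of 16 in each, with lower medians of 0.95 and 1.12. That count and those medians take in restricted forms at low levels, described further on.

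**Figure D2:**
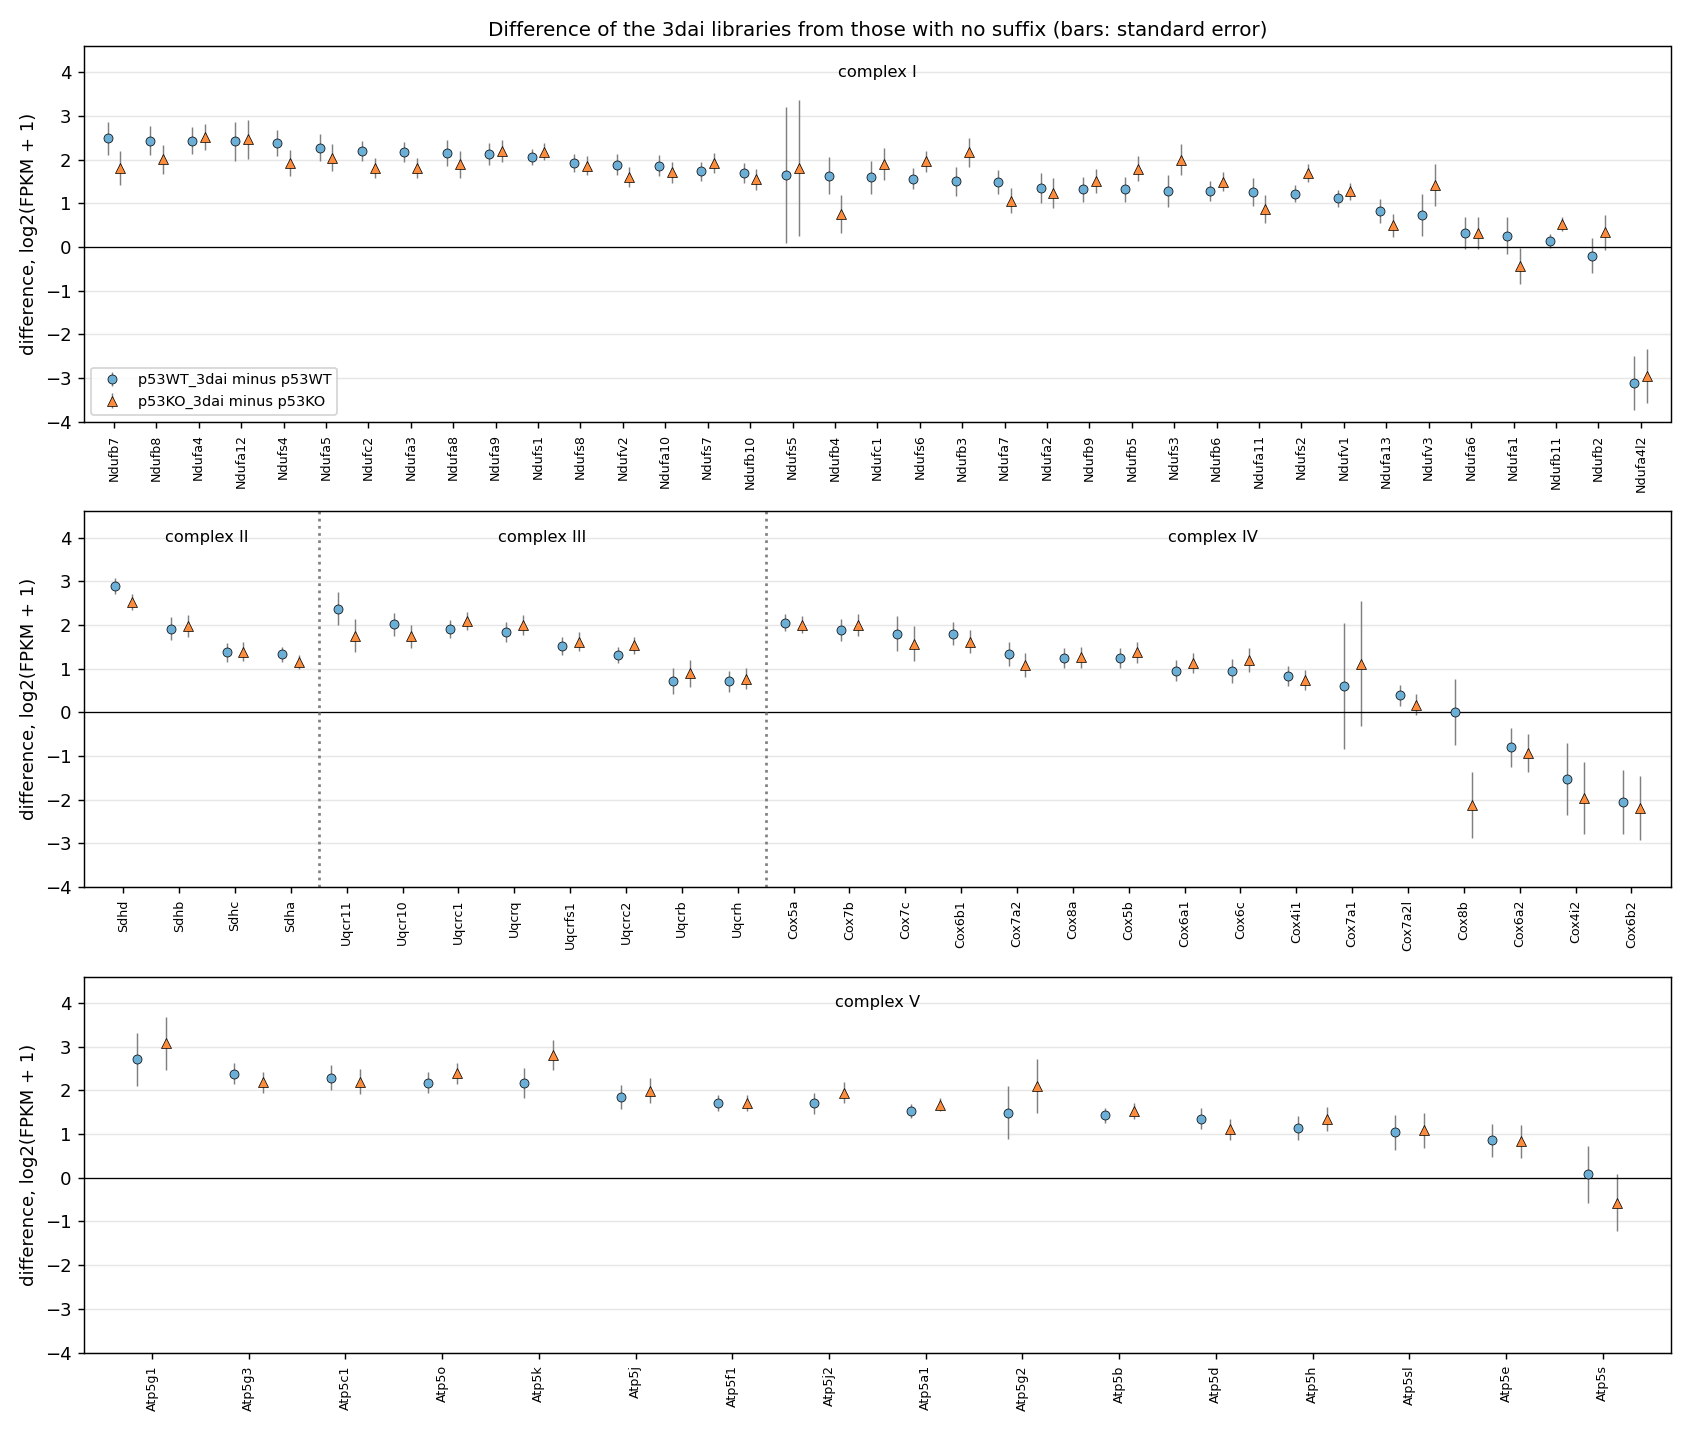
Difference of the 3dai groups from those with no suffix for each of the 81 tested members, grouped by complex, on the log2(FPKM + 1) scale, with standard errors (circles p53WT, triangles p53KO). Most members lie between 1 and 3, while Ndufa4l2, Cox6b2, Cox4i2 and Cox6a2 lie below 0 in both genotypes.

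In complex I, all 7 core subunits coded by nuclear genes rose in 3dai in both genotypes, with medians of 1.73 and 1.86. They are part of the conserved core that carries the flavin, the iron-sulfur clusters and the ubiquinone site. Of the 28 accessory subunits, which surround and stabilise the core, 22 rose in each genotype (1.57 and 1.75). Ndufs1, the largest core subunit, stood at 23.5, 31.5 and 20.3 FPKM in p53WT and 98.8, 107 and 114 in p53WT_3dai (log2 difference 2.06, SE 0.19, adjusted p = 4.04e-07). In p53KO it stood at 24.0, 24.2 and 28.4, and in p53KO_3dai at 97.3, 128 and 134 (log2 difference 2.18, SE 0.19, adjusted p = 2.19e-07). The 3dai libraries were all above those with no suffix, with no overlap. The largest rise of complex I in p53WT was that of Ndufb7, an accessory subunit of the membrane arm (chr8:83566671-83571626 on the plus strand of GRCm38). It stood at 36.8, 53.7 and 15.5 FPKM in p53WT and at 202, 105 and 276 in p53WT_3dai, a ratio of means of 5.50 (log2 difference 2.48, SE 0.39, adjusted p = 6.84e-05). In p53KO it went from 52.5, 35.7 and 35.0 to 151, 139 and 143 (log2 difference 1.81, SE 0.39, adjusted p = 0.00102). Its promoter window, chr8:83566508-83566787, is shown from 250 bases before the RefSeq start to 30 after it, 5′ to 3′ on the strand of the gene, with the capitals marking a match to an ETS factor motif.
Ndufb7 promoter: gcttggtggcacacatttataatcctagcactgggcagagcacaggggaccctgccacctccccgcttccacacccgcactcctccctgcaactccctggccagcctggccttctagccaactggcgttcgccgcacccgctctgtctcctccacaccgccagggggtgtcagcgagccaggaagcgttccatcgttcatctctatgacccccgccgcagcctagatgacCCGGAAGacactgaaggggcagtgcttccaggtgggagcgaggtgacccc

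Ndufa4, the most abundant member under complex I, was at 124, 150.3 and 72.2 FPKM in p53WT and 628, 431 and 803 in p53WT_3dai (log2 difference 2.43, SE 0.30, adjusted p = 7.41e-06). In p53KO it was at 147, 104 and 66.8 and in p53KO_3dai at 563, 526 and 655 (log2 difference 2.51, SE 0.30, adjusted p = 5.42e-06). Its level in 3dai was therefore over 5 times that with no suffix in both genotypes, with means of 621 ± 186 against 115 ± 39.8 and 581 ± 66.5 against 106 ± 40.3 (SD, n = 3 each). Some accessory subunits did not pass in either genotype. Ndufb2 was at 129, 126 and 71.7 FPKM in p53WT and 81.0, 65.3 and 145 in p53WT_3dai (log2 difference -0.20, adjusted p = 0.704). Ndufa1, needed for assembly of the membrane arm, was at 70.4, 107 and 23.2 and 53.8, 59.9 and 95.5 (0.26, adjusted p = 0.625), and Ndufa6 at 132, 102 and 47.7 and 83.5, 76.9 and 194 (0.32, adjusted p = 0.484). In these 3 genes the 2 groups overlapped. Ndufs5 was also not called, and its values differed widely between libraries of a group: 45.1, 37.2 and 0.0956 in p53WT_3dai and 42.9, 0.00746 and 0.00140 in p53KO_3dai. These 4 genes were named after their values had been seen.

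Complex II, succinate dehydrogenase, is the only complex coded wholly by nuclear genes, and its 4 members rose in every comparison of 3dai or G2 with no suffix. The weakest of these calls, that of Sdha in p53KO_G2, was lost under median-of-ratios scaling (log2 difference 0.22, adjusted p = 0.448), quantile normalization (adjusted p = 0.172), without p53KO_G2 replicate 1 (0.228) and without p53KO replicate 2 (0.0589). Sdha carries the flavin that oxidises succinate, Sdhb the iron-sulfur clusters, and Sdhc and Sdhd anchor the enzyme in the membrane and bind ubiquinone. Sdhd (chr9:50596357-50603812 on the minus strand) had the largest rise of all members in p53WT. It stood at 37.4, 38.2 and 27.4 FPKM in p53WT and at 243, 234 and 303 in p53WT_3dai, a ratio of means of 7.57 (log2 difference 2.89, SE 0.19, adjusted p = 1.05e-08). In p53KO it went from 40.6, 34.0 and 31.7 to 262, 175 and 194 (log2 difference 2.52, SE 0.19, adjusted p = 4.15e-08). The libraries of the 2 conditions lay far apart, since the lowest 3dai value was 175 and the highest with no suffix 40.6. Sdha, by contrast, went from 50.2, 36.9 and 49.0 to 119, 122 and 103 in p53WT (log2 difference 1.33, SE 0.17, adjusted p = 9.14e-06) and from 59.7, 51.9 and 62.0 to 123, 129.9 and 136 in p53KO (log2 difference 1.15, SE 0.17, adjusted p = 3.6e-05). The ratio of means was 2.53 in p53WT and 2.24 in p53KO.

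The subunits of complex II did not keep their proportions. Sdhd had the lowest group mean of the 4 with no suffix in both genotypes. Its share of the summed FPKM of the 4 was 17.6% ± 1.13 in p53WT and 17.1% ± 0.654 in p53KO, against 35.5% ± 0.315 in p53WT_3dai and 29.3% ± 4.24 in p53KO_3dai (SD, n = 3 each). In G2 it was 31.0% ± 1.27 and 25.9% ± 1.12 (SD, n = 2 each). The share of Sdha moved the other way, from 24.3% ± 8.22 to 16.0% ± 3.37 in p53WT and from 28.2% ± 3.38 to 18.3% ± 1.98 in p53KO. These shares are descriptions of levels per length and were not tested. The promoter window of Sdhd, chr9:50603820-50604099, holds an ETS motif match, in capitals, and is shown because this gene led the rise.
Sdhd promoter: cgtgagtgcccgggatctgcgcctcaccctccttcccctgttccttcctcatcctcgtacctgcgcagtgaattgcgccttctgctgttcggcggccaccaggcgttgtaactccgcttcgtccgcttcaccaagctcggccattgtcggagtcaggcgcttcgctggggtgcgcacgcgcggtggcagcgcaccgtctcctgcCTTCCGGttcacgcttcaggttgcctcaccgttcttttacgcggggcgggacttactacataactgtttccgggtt

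**Figure D3:**
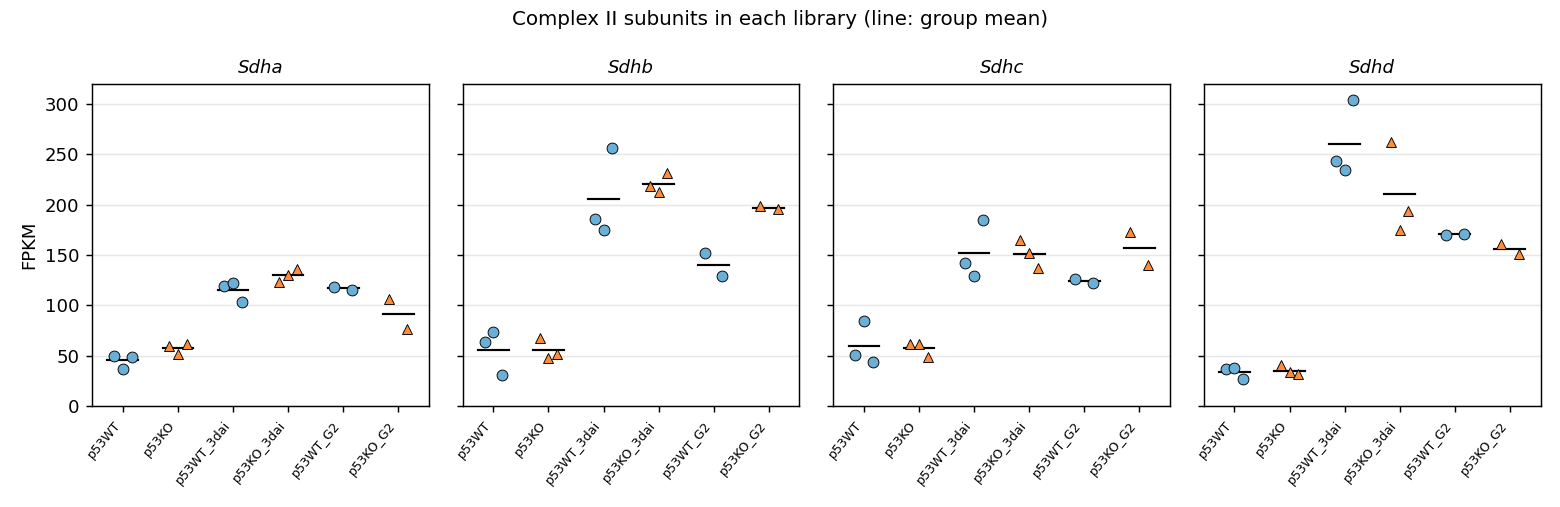
FPKM of the 4 complex II subunits in each library (circles p53WT, triangles p53KO, line at the group mean). Sdhd lies between 27.4 and 40.6 FPKM with no suffix and between 175 and 303 in 3dai.

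Sdhb was at 63.4, 73.9 and 31.5 FPKM in p53WT and 186, 175 and 256 in p53WT_3dai (log2 difference 1.92, SE 0.26, adjusted p = 1.58e-05), and at 67.5, 48.2 and 51.3 and 219, 212 and 231 in the p53KO groups (log2 difference 1.98). Sdhc was at 50.6, 84.7 and 44.4 and 142, 129 and 185 (log2 difference 1.37, SE 0.22, adjusted p = 9.25e-05), and with p53KO at 62.2, 62.0 and 48.4 and 164, 152 and 137 (log2 difference 1.38). Neither gene overlapped between 3dai and no suffix in either genotype.

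In complex III, 7 of 8 members rose in p53WT_3dai, and the differences of the 8 lay between 0.71 and 2.37 on the log2 scale. Uqcr11, a small subunit, had the largest rise there (chr10:80402997-80406830 on the minus strand). It was at 50.3, 135 and 31.8 FPKM in p53WT and 304, 235 and 434 in p53WT_3dai (log2 difference 2.37, SE 0.38, adjusted p = 8.65e-05), and with p53KO at 99.4, 83.3 and 119.8 and 324, 359 and 330.0 (log2 difference 1.75, SE 0.38, adjusted p = 0.00114). The core proteins Uqcrc1 and Uqcrc2 rose by 1.91 and 1.31 in p53WT and by 2.08 and 1.54 in p53KO, and Uqcrfs1, the Rieske iron-sulfur protein, by 1.52 and 1.62. Uqcrh, the hinge protein and the most abundant transcript of the complex, rose least, from 436, 413 and 222 to 570.0, 426 and 719 (log2 difference 0.71, SE 0.25, adjusted p = 0.0246), with 1 library of p53WT_3dai below the highest of p53WT. The promoter window of Uqcr11, chr10:80406792-80407071, is shown because it holds both an ETS match and a match to the NRF1 motif, each in capitals.
Uqcr11 promoter: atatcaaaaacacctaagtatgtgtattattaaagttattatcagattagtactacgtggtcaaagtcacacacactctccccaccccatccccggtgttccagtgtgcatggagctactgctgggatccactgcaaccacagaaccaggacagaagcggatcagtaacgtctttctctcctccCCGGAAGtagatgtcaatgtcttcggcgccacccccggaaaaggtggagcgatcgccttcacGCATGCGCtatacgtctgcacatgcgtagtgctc

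In complex IV the same 10 members rose in both genotypes, all of them widely expressed subunits. The other 6 tested were Cox7a2l, which is also widely expressed, and 5 restricted forms. Cox5a, a matrix-side subunit (chr9:57521274-57532426 on the plus strand), had the largest rise of the complex in p53WT. It stood at 128, 159.9 and 120.2 FPKM in p53WT and 564, 457 and 693 in p53WT_3dai (log2 difference 2.05, SE 0.20, adjusted p = 5.97e-07). In p53KO it stood at 145, 154 and 114 and in p53KO_3dai at 516, 561 and 575 (log2 difference 2.00, SE 0.20, adjusted p = 7.47e-07). The lowest 3dai library was at 457 and the highest with no suffix at 159.9, so the conditions were well apart. Cox7b went from 43.1, 75.8 and 30.4 to 156, 156 and 211 (log2 difference 1.87, SE 0.25, adjusted p = 1.7e-05) and Cox6b1 from 165, 244 and 111 to 462, 569.9 and 723 (log2 difference 1.80, SE 0.26, adjusted p = 3.87e-05). The window before Cox5a, chr9:57520982-57521261, holds in capitals a match to the core of the hypoxia-inducible factor motif and none of the ETS, NRF1 or YY1 letters searched.
Cox5a promoter: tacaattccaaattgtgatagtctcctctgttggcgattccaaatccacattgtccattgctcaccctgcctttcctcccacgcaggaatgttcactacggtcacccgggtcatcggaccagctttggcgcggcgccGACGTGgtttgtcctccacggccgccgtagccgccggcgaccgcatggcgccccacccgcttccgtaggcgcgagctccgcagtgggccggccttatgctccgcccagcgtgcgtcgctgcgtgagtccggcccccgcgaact

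Cox4i1, which belongs to the widely expressed form of the enzyme, rose less than most members. It was at 642, 577 and 359 FPKM in p53WT and 766, 774 and 1243 in p53WT_3dai (log2 difference 0.82, SE 0.23, adjusted p = 0.00709), and with p53KO at 541, 469 and 421 and 768, 793 and 801 (log2 difference 0.73, SE 0.23, adjusted p = 0.0144). Under median-of-ratios scaling its differences were 0.41 and 0.40 and no longer passed (adjusted p = 0.145 and 0.161). Cox6a1 was at 199.9, 297 and 154 and 357, 370.4 and 508 (log2 difference 0.95, SE 0.23, adjusted p = 0.00277), and that call too was lost under the scaling (adjusted p = 0.0593). Cox7a2 rose from 112, 176 and 95.1 to 315, 266 and 359 (log2 difference 1.32, SE 0.27, adjusted p = 0.000824) and Cox8a from 289, 299 and 148 to 509, 453 and 737 (log2 difference 1.24, SE 0.24, adjusted p = 0.00043). Cox7a2l was at 88.7, 79.0 and 56.7 and 84.8, 80.2 and 132 and did not pass (log2 difference 0.39, SE 0.23, adjusted p = 0.175).

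The partners of these genes that are known from heart and skeletal muscle, lung or testis were low and often listed at 0. Cox6a2, a muscle form, was at 2.35, 0 and 0.580 FPKM in p53WT, 2.37, 1.04 and 0 in p53KO and 0 in all 6 libraries of 3dai. In p53WT_G2 it was at 2.99 and 2.60 and in p53KO_G2 at 0 and 0.316. It made up at most 1.16% of the summed FPKM of Cox6a1 and Cox6a2 in any library. Cox8b, a muscle form that humans lack, was above 0 in 3 of 16 libraries: 5.91 and 10.8 FPKM in p53KO and 7.37 in p53WT_G2. Cox7a1, the muscle form of subunit 7a, was at 0.251, 0 and 6.26 in p53WT, 13.6, 0 and 0 in p53KO, 4.23, 5.15 and 0 in p53WT_3dai and 29.6, 0 and 3.86 in p53KO_3dai. In the G2 groups it was at 22.4 and 3.76 and 0 and 29.1. The libraries of a group differed widely (SE 1.44 in p53WT_3dai against p53WT), and no comparison of Cox7a1 was called. Cox4i2, a lung form induced by low oxygen, was at 3.14, 8.94 and 4.17 in p53WT and 0, 0 and 7.93 in p53WT_3dai (log2 difference -1.52, SE 0.82, adjusted p = 0.13). Without p53WT_3dai replicate 3, the only 3dai library above 0 for it, the fall of Cox4i2 passed (log2 difference -2.58, adjusted p = 0.00814).

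The members called lower in 3dai were 3: Ndufa4l2, Cox6b2 and Cox8b. Ndufa4l2 (chr10:127514967-127517154 on the plus strand), which low oxygen induces and which is known to be high in pericytes, fell from 14.3, 25.2 and 2.74 FPKM in p53WT to 0, 1.34 and 0 in p53WT_3dai (log2 difference -3.11, SE 0.62, adjusted p = 0.00061). In p53KO it fell from 9.29, 5.04 and 6.34 to a listed 0 in all 3 libraries of p53KO_3dai (adjusted p = 0.000936). In G2 it was at 15.5 and 11.8 in p53WT_G2 and 1.66 and 9.67 in p53KO_G2. Cox6b2, a testis form of subunit 6b, was at 16.4, 6.20 and 1.64 in p53WT and 0, 3.63 and 0 in p53WT_3dai (log2 difference -2.05, SE 0.73, adjusted p = 0.0279). That call was lost without p53WT replicate 1 (adjusted p = 0.144), p53WT replicate 2 (0.0626), p53WT_3dai replicate 1 (0.106) or p53WT_3dai replicate 3 (0.106), and also with no filter, with array weights or with only the groups compared (0.0559 to 0.099). With p53KO Cox6b2 was at 3.63, 2.69 and 4.56 and listed at 0 in the 3 libraries of p53KO_3dai (adjusted p = 0.0201, and 0.0585 without p53KO replicate 3). Cox8b passed the filter of 1 FPKM in 2 libraries only with its 2 p53KO libraries, the group where it is high, and its count among the falls was favoured by that. Its difference in p53KO (adjusted p = 0.0273) rests on the 2 libraries given above and was lost when any 1 of 5 of its 6 libraries was left out, for example p53KO replicate 3 (adjusted p = 0.143), and with no filter, array weights or only the groups compared (0.0512 to 0.107). Cox6b2 is the member with the largest fall for which a promoter was found, and its window, chr7:4753065-4753344 on the minus strand, holds none of the motifs searched.
Cox6b2 promoter: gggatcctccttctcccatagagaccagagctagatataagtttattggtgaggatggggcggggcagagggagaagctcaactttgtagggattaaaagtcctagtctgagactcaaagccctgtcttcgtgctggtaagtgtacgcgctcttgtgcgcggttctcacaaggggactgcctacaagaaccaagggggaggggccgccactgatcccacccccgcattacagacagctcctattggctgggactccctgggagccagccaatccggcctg

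**Figure D4:**
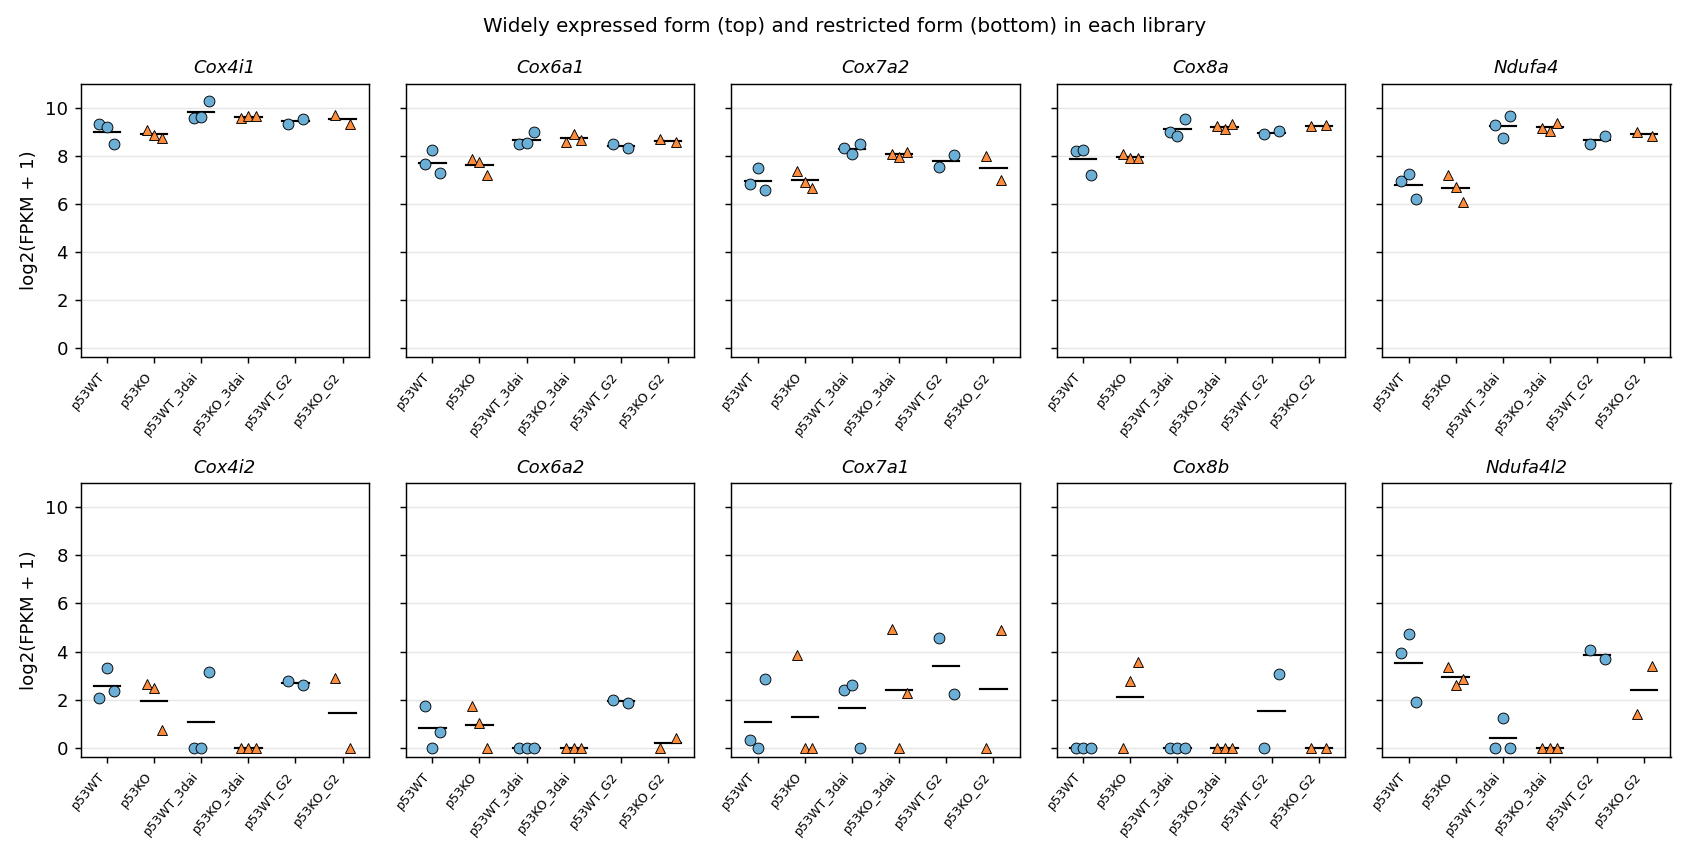
Level in each library of 5 widely expressed members (top row) and of their restricted relatives (bottom row) on the log2(FPKM + 1) scale (circles p53WT, triangles p53KO, line at the group mean). The top genes lie above 6 in every library, and the bottom genes lie below 5 and are often at 0.

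Markers of pericytes and of mature fibres are given beside these low members. The 8 pericyte markers were all called lower in 3dai in both genotypes, where 20.9% of all genes fell in p53WT and 22.7% in p53KO. Their summed FPKM was 365 to 957 in p53WT and 377 to 555 in p53KO, against 24.8 to 42.0 in p53WT_3dai and 19.6 to 53.6 in p53KO_3dai. In G2 the sum was 639 to 744 and 350.4 to 614, with all 8 above 0. How Ndufa4l2 and the pericyte markers varied together between single libraries of a group was not compared. The 15 markers of mature muscle fibres summed to 35.7 to 143 with no suffix in p53WT, 49.4 to 133 in p53WT_3dai and 666 to 1731 in p53WT_G2, with 6 of 15 at 0 in each p53WT_3dai library. With p53KO the sums were 86.3 to 95.9, 80.0 to 89.0 and 549 to 1022. The fibre sums of 3dai and of no suffix overlapped in both genotypes, but more of the 15 markers were at 0 in 3dai. With no suffix 0 to 3 were at 0 per library in each genotype, and in p53KO_3dai 4 to 7. The calls of the fibre markers in 3dai are not given here. In p53KO_G2, where the fibre sums were higher than in p53KO, Cox8b was listed at 0 in both libraries. Their part in the levels of Ndufa4l2, Cox4i2, Cox6a2, Cox7a1 and Cox8b was not tested. In bulk RNA of sorted cells, fewer cells of a type and less RNA per cell cannot be told apart.

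The broad rise itself also went with other marker lists. Their counts are to be read against all genes, of which 31.8% rose and 20.9% fell in p53WT_3dai. In p53KO_3dai the shares were 30.4% and 22.7%. All 5 markers of dividing cells rose, from sums of 1.09 to 6.21 FPKM in p53WT and 1.77 to 5.05 in p53KO to 479 to 543 in p53WT_3dai and 584 to 724 in p53KO_3dai. Of 10 markers of muscle differentiation 6 rose in each genotype and 1 fell in p53WT and 2 in p53KO. Of 6 Schwann cell markers all fell in both genotypes, and of 6 tenocyte markers 5 fell and 1 rose. Of 6 fibro-adipogenic markers 4 fell in p53WT and 3 in p53KO, of 6 endothelium markers 3 in each, and 3 of 3 tested red blood cell markers in each. Of 2 tested macrophage markers 0 were called, and the 1 tested adipocyte marker, Fabp4, fell from a mean of 31.2 FPKM to a listed 0 in p53WT_3dai and from 25.9 to 0.382 in p53KO_3dai. Of 8 muscle stem cell markers, 5 fell and 1 rose in each genotype, with sums of 1760 to 2509 with no suffix and 573 to 659 in 3dai. Their part in the rise of the subunits was not tested.

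In complex V, the 9 tested subunits outside F1, which form the membrane part and the peripheral stalk, had positive differences in 3dai. Of these, 8 rose in p53WT and 9 in p53KO (medians 1.85 and 2.09). Of the 5 subunits of F1, the catalytic head with the central stalk, 4 rose in each (1.43 and 1.53). Atp5b was at 505, 696 and 450.1 FPKM in p53WT and 1486, 1407 and 1482 in p53WT_3dai (log2 difference 1.43, SE 0.17, adjusted p = 5.83e-06), and with p53KO at 563, 556 and 478 and 1331, 1701 and 1582 (log2 difference 1.53, SE 0.17, adjusted p = 2.99e-06). Atp5e, the small epsilon subunit, was the F1 member that did not pass, at 319.6, 406 and 121 and 428, 301 and 727 (log2 difference 0.86, SE 0.38, adjusted p = 0.0697). Atp5k, the e subunit of the membrane part, was at 127, 153 and 205 in p53KO and 968, 1296 and 1094 in p53KO_3dai (log2 difference 2.80, SE 0.35, adjusted p = 8e-06), and in p53WT it went from 123, 443 and 193 to 976, 849.7 and 1152 (log2 difference 2.16, SE 0.35, adjusted p = 9.84e-05). Atp5s was at most 7.37 FPKM and not called (log2 difference 0.08 in p53WT).

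The c ring, which turns as protons pass, is coded by 3 genes for the same mature protein. Atp5g1 (chr11:96068852-96075670 on the minus strand) had the largest rise of complex V. It was at 12.0, 28.1 and 17.2 FPKM in p53WT and 126, 101 and 149.7 in p53WT_3dai (log2 difference 2.71, SE 0.61, adjusted p = 0.00146). In p53KO it was at 30.8, 31.2 and 2.48 and in p53KO_3dai at 133, 115 and 136 (log2 difference 3.07, SE 0.61, adjusted p = 0.000542). Its value in p53KO replicate 3 was far below those of the other 2 p53KO libraries. Atp5g3, the main source of c ring transcript, went from 262, 332 and 196 to 1215, 1115 and 1770.2 in p53WT (log2 difference 2.37, SE 0.24, adjusted p = 9.57e-07) and from 288, 275 and 185 to 1115, 1063 and 1177 in p53KO (log2 difference 2.19, SE 0.24, adjusted p = 2.17e-06). Atp5g2 was at 35.5, 3.55 and 10.8 and 73.2, 24.3 and 22.0 in p53WT (log2 difference 1.49, SE 0.61, adjusted p = 0.0525), with overlap, and its difference was 2.26 (adjusted p = 0.0032) without p53WT replicate 1 and 1.79 (0.0445) without p53WT_3dai replicate 3. In p53KO Atp5g2 rose from 15.3, 19.7 and 9.45 to 46.3, 71.2 and 78.9 (log2 difference 2.09, SE 0.61, adjusted p = 0.00931). Atp5g3 held between 84.4% and 93.9% of the summed FPKM of the 3 genes in every library. The window of Atp5g1, chr11:96075602-96075881, holds no motif searched and is shown as the promoter of the largest complex V rise.
Atp5g1 promoter: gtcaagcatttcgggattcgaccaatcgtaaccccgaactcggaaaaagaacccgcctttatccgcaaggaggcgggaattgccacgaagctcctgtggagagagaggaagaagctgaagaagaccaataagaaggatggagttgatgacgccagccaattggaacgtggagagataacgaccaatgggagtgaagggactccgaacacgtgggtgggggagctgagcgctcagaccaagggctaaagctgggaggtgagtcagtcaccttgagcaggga

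The G2 cells, from the same muscles as those with no suffix, had the same direction of change, with smaller medians as first fitted. Relative to all genes, the sizes in G2 and 3dai were similar with quantile normalization, as given further on. In p53WT_G2 against p53WT, 50 of 81 members rose and 0 fell, where 22.1% of all genes rose and 5.39% fell, and the median difference was 1.16 against 0.33 for all genes. In p53KO_G2 against p53KO, 59 rose and 0 fell, where 22.5% and 7.06% of all genes did (medians 1.25 and 0.31). At an unadjusted p under 0.05, 0 members were lower in p53WT, where 8.86% of all genes were, and 1 in p53KO, where 10.5% were. Called in both genotypes were 47 members, and all of these 47 were also called higher in 3dai in both. The G2 and 3dai comparisons subtract the same libraries with no suffix, which favours such an overlap. The like share of all genes was not counted. The p53WT count was 32 without p53WT_G2 replicate 2, 41 without p53WT replicate 3, 54 without p53WT replicate 2 and 30 when only these 2 groups were fitted. The p53KO count fell to 40 without p53KO_G2 replicate 1. Under median-of-ratios scaling 35 and 41 members rose, and relative to all genes the members' median was higher by 0.75 and 0.89, against 0.83 and 0.94 as first fitted.

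The marker lists in G2 were as follows. Of all genes 22.1% rose and 5.39% fell in p53WT_G2, and 22.5% and 7.06% in p53KO_G2. The 5 markers of dividing cells rose in both genotypes, to sums of 207 to 227 FPKM in p53WT_G2 and 231 to 338 in p53KO_G2. Of 10 markers of muscle differentiation 9 rose in p53WT_G2 and 7 in p53KO_G2, and of 13 tested markers of mature fibres 7 and 8, with 0 called lower in either list. The pericyte markers gave 0 calls of 8 in p53WT_G2 and 1 fall in p53KO_G2. Of 8 muscle stem cell markers 2 rose and 4 fell in p53WT_G2 and 1 rose and 4 fell in p53KO_G2, with sums of 968 to 1096 and 874 to 1170. Of 3 tested red blood cell markers 2 fell in p53WT_G2 and 3 in p53KO_G2, of 6 Schwann cell markers 4 in each, and of 6 fibro-adipogenic markers 1 in each, Dcn. Of 6 tenocyte markers 1 rose in each genotype and 3 fell in p53KO_G2, and of 6 endothelium markers 1 fell in p53WT_G2 and 2 fell and 1 rose in p53KO_G2. Fabp4 and the macrophage markers were not called. Their part in the rise of the subunits in G2 was not tested.

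By complex, 23 of 37 members of I, 4 of 4 of II, 7 of 8 of III, 6 of 16 of IV and 10 of 16 of V rose in p53WT_G2, and 29, 4, 7, 7 and 12 in p53KO_G2. Sdhd was at 170.3 and 171 FPKM in p53WT_G2 (log2 difference 2.30, SE 0.21, adjusted p = 1.76e-06) and 160.5 and 151 in p53KO_G2 (log2 difference 2.11, SE 0.21, adjusted p = 4.06e-06), again with the largest difference of the called members in p53WT. Uqcr11 followed there, at 336 and 244 (log2 difference 2.23, SE 0.42, adjusted p = 0.00116), and then Atp5k at 714 and 1052 (log2 difference 1.98, SE 0.39, adjusted p = 0.00162). With only the 2 groups fitted, the calls of Uqcr11 and Atp5k were lost (adjusted p = 0.06 and 0.066). In p53KO_G2 the largest rise was that of Ndufs3, a core subunit of the peripheral arm, at 70.7 and 59.9 against 7.33, 20.5 and 8.85 in p53KO (log2 difference 2.45, SE 0.40, adjusted p = 0.000353). Atp5k at 976 and 681 (log2 difference 2.36, SE 0.39, adjusted p = 0.000416) and Ndufa4 at 507 and 455 (log2 difference 2.24, SE 0.34, adjusted p = 0.000175) came next.

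Set directly against 3dai, the G2 cells were lower for most members by small amounts that mostly did not pass. In p53WT_G2 against p53WT_3dai, 13 members were higher and 68 lower in estimate, with a median of -0.34 against 0.09 for all genes, and 2 were called higher and 4 lower, where 13.9% and 6.7% of all genes were. In p53KO_G2 against p53KO_3dai the median was -0.25 against 0.12, with 2 called higher and 5 lower, where 16.1% and 7.1% of all genes were. These comparisons share their G2 and 3dai libraries with those above. Relative to all genes, the members' median was -0.42 and -0.38 as fitted, and -0.058 and -0.0080 with quantile normalization. The G2 group mean lay between those of no suffix and 3dai for 66 members in p53WT and 59 in p53KO. The same count was not made over all genes. Against no suffix with quantile normalization, the members' median exceeded that of all genes by similar amounts in G2 and 3dai. These were 1.139 in p53WT_G2 and 1.191 in p53WT_3dai, and 1.116 in p53KO_G2 and 1.265 in p53KO_3dai. Ndufs7, a core subunit with the iron-sulfur cluster nearest to ubiquinone, was called lower in G2 in both genotypes. It was at 54.8 and 52.6 FPKM in p53WT_G2 against 104, 92.0 and 172 in p53WT_3dai (log2 difference -1.12, SE 0.25, adjusted p = 0.00518), and at 67.7 and 49.4 in p53KO_G2 against 102, 127 and 122 in p53KO_3dai (log2 difference -0.997, SE 0.25, adjusted p = 0.0102). The calls were lost without p53WT_G2 replicate 2 (adjusted p = 0.0514) and without p53KO_G2 replicate 2 (0.123).

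The other falls in p53WT were Ndufs6, an accessory subunit (log2 difference -0.94, SE 0.27, adjusted p = 0.0222), Cox5a (log2 difference -0.73, SE 0.22, adjusted p = 0.0285) and Atp5f1, the stalk subunit b (log2 difference -0.64, SE 0.20, adjusted p = 0.0363). Cox5a lost the call without p53WT_3dai replicate 1 or 3 or either p53WT_G2 library (adjusted p between 0.066 and 0.215), and Ndufs6 without p53WT_3dai replicate 3 or either p53WT_G2 library (0.084 to 0.151). In p53KO the falls were Ndufs1 (log2 difference -0.79, SE 0.21, adjusted p = 0.0148), Atp5b (log2 difference -0.66, SE 0.19, adjusted p = 0.0224), Uqcrc2 (log2 difference -0.66) and Atp5a1, the alpha subunit (log2 difference -0.54). Atp5b lost the call without p53KO_3dai replicate 2 or 3 or either p53KO_G2 library (adjusted p between 0.0709 and 0.0946), and Ndufs1 without p53KO_3dai replicate 2 or 3 or p53KO_G2 replicate 2 (0.053 to 0.13). Atp5f1, Uqcrc2 and Atp5a1 were named after their values had been seen and were not followed through the alternatives.

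The members called higher in G2 than in 3dai were low ones. Ndufa4l2 was called in both genotypes (adjusted p = 0.00265 in p53WT and 0.0212 in p53KO). The p53KO call was lost without p53KO_3dai replicate 2 (adjusted p = 0.0509), p53KO_3dai replicate 3 (0.0531) or p53KO_G2 replicate 2 (0.275). Cox6a2 was called in p53WT (adjusted p = 0.0121), but not without p53WT_G2 replicate 1 (0.083) or 2 (0.067). Cox6b2 was called in p53KO, where it was at 14.0 and 2.58 FPKM in G2 (adjusted p = 0.0204), but not without p53KO_G2 replicate 1 (0.216) or p53KO_3dai replicate 3 (0.0514).

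The study's genotype comparison gave no call among the members. In p53KO against p53WT with no suffix 0 of 81 were called, where 0.00772% of all genes were. At an unadjusted p under 0.05 in limma 1 was higher and 1 lower, where 3.95% of all genes passed in either direction. In 3dai 0 were called, where 0.0849% of all genes were, and 0 reached an unadjusted p under 0.05, where 8.89% of all genes did. In G2 0 were called, where 0.0695% of all genes were, and at the unadjusted limit 0 were higher and 1 lower, where 4.87% of all genes passed. The medians of the members were -0.03, 0.00 and 0.10, and with 1 library left out they lay between -0.27 and 0.13, between -0.12 and 0.14 and between -0.029 and 0.28. The middle 50% of members lay between -0.19 and 0.18 with no suffix, between -0.17 and 0.10 in 3dai and between -0.12 and 0.26 in G2. A standard error of 0.27 in median with no suffix and in 3dai, and of 0.34 in G2, means that a modest difference of a single gene would not pass. The count stayed at 0 in all 17, 18 and 15 alternatives run.

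**Figure D5:**
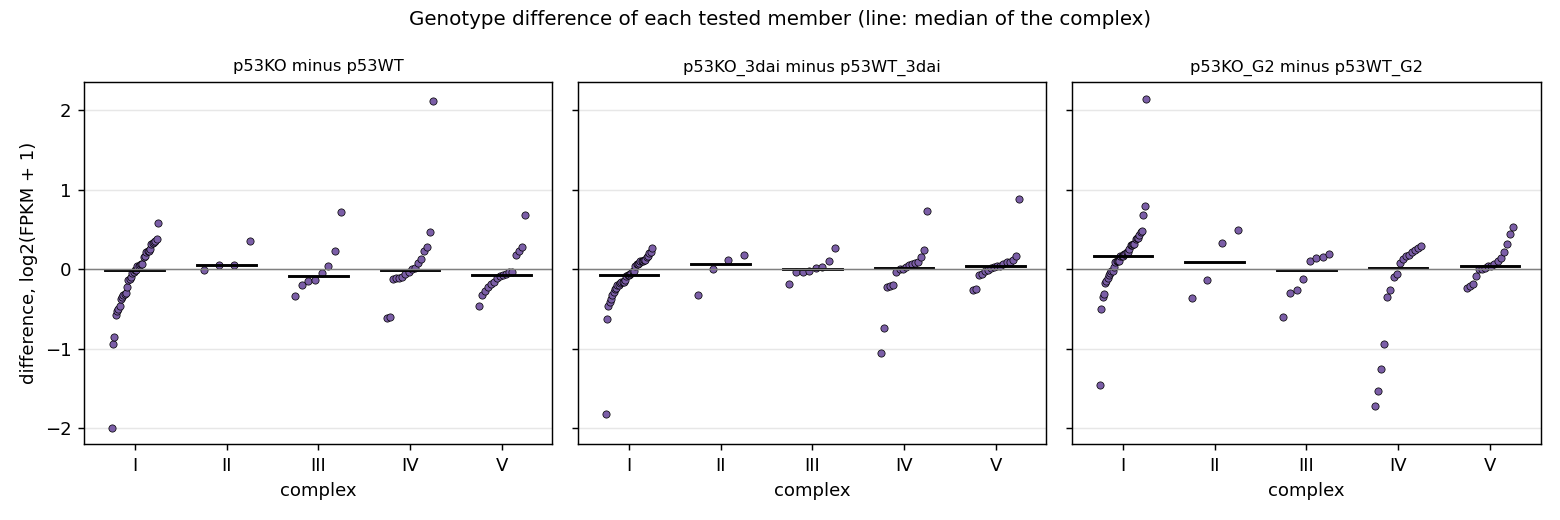
Difference of p53KO from p53WT on the log2(FPKM + 1) scale for each of the 81 tested members, by complex, with no suffix (left), in 3dai (middle) and in G2 (right), with a line at the median of each complex. The members' medians are -0.03, 0.00 and 0.10 in the 3 panels, and Ndufs5, which is near 0 FPKM in many libraries, lies at -1.99, -1.81 and 2.15.

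With no suffix the smallest p-values were those of Cox8b and of Ndufs3. In p53KO libraries Ndufs3 stood at 7.33, 20.5 and 8.85 FPKM, and in p53WT libraries at 29.3, 20.2 and 18.4 (log2 difference -0.94, SE 0.36, adjusted p = 1). The groups overlapped by 1 library. In 3dai it was Sdhd, at 262, 175 and 194 and 243, 234 and 303 (log2 difference -0.32, SE 0.19, adjusted p = 0.665), and in G2 Cox6a2 (adjusted p = 0.703). The difference between genotypes in 3dai minus that with no suffix was called for 0 of 81 members, where 0% of all genes were, with 0 members at an unadjusted p under 0.05, where 6% of all genes passed, and a median of 0.04. In G2 minus no suffix 0 were called, where 0.0232% of all genes were, and 2 higher and 3 lower reached the unadjusted limit, where 4.35% of all genes did. Ndufs3 was among these (log2 difference 1.74, SE 0.56, adjusted p = 1). Its group means were 22.6 ± 5.83 in p53WT, 12.2 ± 7.19 in p53KO (SD, n = 3 each), 37.6 ± 9.77 in p53WT_G2 and 65.3 ± 7.65 in p53KO_G2 (SD, n = 2 each).

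Neighbouring parts of the pathway moved with the subunits in 3dai. Of 10 tested subunits and carriers that the pattern misses, 7 rose and 0 fell in p53WT_3dai, and 6 and 0 in p53KO_3dai, where 31.8% and 30.4% of all genes rose. Ndufab1, the acyl carrier protein of complex I, was at 3.59, 2.71 and 1.27 FPKM in p53WT and 10.0, 20.8 and 21.9 in p53WT_3dai (log2 difference 2.38). Atpif1, the inhibitor of complex V run backwards, was at 20.5, 22.6 and 8.68 and 66.4, 65.4 and 96.2 (2.16). Cyc1, cytochrome c1 of complex III, was at 99.8, 118 and 61.2 and 283, 275 and 319 (1.69).

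Of 48 assembly factors, 32 rose and 1 fell in p53WT_3dai, 30 and 2 in p53KO_3dai, 23 and 0 in p53WT_G2 and 18 and 1 in p53KO_G2. Of all genes 31.8%, 30.4%, 22.1% and 22.5% rose in these comparisons, and 20.9%, 22.7%, 5.39% and 7.06% fell. The largest rises in p53WT_3dai were those of Tmem126b, which helps to build the membrane arm of complex I, at 1.44, 0 and 0 against 18.2, 12.7 and 30.3, and of Taco1, a translational activator of the mitochondrial Cox1 transcript, at 0, 0 and 0 against 9.65, 14.6 and 6.39. Of the p53WT libraries, 2 were listed at 0 for Tmem126b and 3 for Taco1. Ttc19, a complex III factor, was the one that fell, from 15.6, 23.3 and 18.2 to 9.78, 6.50 and 6.34 (log2 difference -1.23). Sco2, a copper chaperone of complex IV and a known p53 target, was at 16.7, 24.5 and 15.4 in p53WT and 17.5, 14.4 and 8.16 in p53KO, and at 15.8, 20.2 and 25.1 and 24.0, 11.5 and 9.98 in 3dai. In G2 Sco2 was at 17.2 and 12.9 with p53WT and 14.0 and 13.6 with p53KO. It was not called between genotypes under any suffix, and the genotypes overlapped under each.

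The tricarboxylic acid cycle list, which feeds the chain with NADH and succinate, gave 17 higher and 1 lower of 21 in p53WT_3dai, 18 and 1 in p53KO_3dai, 15 and 0 in p53WT_G2 and 16 and 0 in p53KO_G2, to be read against the same shares of all genes (31.8%, 30.4%, 22.1% and 22.5% higher, and 20.9%, 22.7%, 5.39% and 7.06% lower). Dlat, a subunit of pyruvate dehydrogenase, went from 6.59, 15.3 and 10.2 FPKM to 66.1, 58.2 and 54.1 (log2 difference 2.44), and Idh2, mitochondrial isocitrate dehydrogenase, from 42.1, 18.8 and 25.9 to 157, 115 and 159 (2.33). The one that fell was Pdk2, a kinase that switches pyruvate dehydrogenase off and so no cycle enzyme, at 4.82, 0.978 and 2.33 and 0, 0.683 and 0 (-1.503).

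Of 26 tested regulators of mitochondrial biogenesis, 8 rose and 4 fell in p53WT_3dai, 7 and 4 in p53KO_3dai, 5 and 3 in p53WT_G2 and 5 and 1 in p53KO_G2. The shares that rose were all a little below those of all genes (31.8%, 30.4%, 22.1% and 22.5%). Of all genes 20.9%, 22.7%, 5.39% and 7.06% fell. The share of regulators that fell was above that of all genes in p53WT_G2 and below it in the other comparisons. Ssbp1, the binding protein of single-stranded mitochondrial DNA, rose from 11.9, 7.89 and 3.15 to 61.0, 42.8 and 50.9 FPKM (log2 difference 2.74), and Esrra, the orphan receptor ERR alpha, from 4.43, 5.65 and 2.78 to 31.2, 18.6 and 33.5 (2.44). Myc fell from 351, 365 and 414 to 73.1, 74.7 and 58.7 (-2.44) and Ppard from 23.3, 29.9 and 28.5 to 5.57, 5.54 and 4.85 (-2.15). Ppargc1a, the coactivator PGC-1 alpha, reached at most 1.43 FPKM in any library. Tfam, the main packaging protein of mitochondrial DNA, was at 24.6, 25.6 and 18.5 and 29.0, 25.1 and 28.7 and was not called (log2 difference 0.27).

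Motifs of factors known for respiratory chain promoters were counted in the RefSeq windows (GRCm38.p6) of 280 bases around the start sites. Of the 84 members, 81 matched the table by symbol and 3 by synonym, and 69 had a promoter there, in 75 windows. The ETS letters CCGGAAG or their reverse complement, as in the windows of Ndufb7, Sdhd and Uqcr11, were in 16 of 75 windows (21.3%), against 8.45% of all 32851 windows. The NRF1 letters GCGCATGC were in 9 (12%, against 2.58%), and the YY1 letters AAGATGGC in 5 (6.67%, against 2.29%). Any of these 3 motifs was in 24 windows (32%, against 12.4%). The letters CAAGGTCA, read by ERR alpha, were in 3 windows (4%, against 1.46%), and GACGTG of the hypoxia-inducible factors in 5 (6.67%, against 5.91%). All were read on both strands, and an ETS and a YY1 match can share the letters AAG.

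Among tested members with a promoter, the median difference in p53WT_3dai was 1.80 for the 15 with an ETS match, 14 of them called higher, and 1.61 for the 52 without, 40 called higher. With and without an NRF1 match the medians were 1.70 (8 members) and 1.63 (59), with 6 and 48 called higher. For YY1 they were 1.71 (5 members) and 1.59 (62), for the ERR alpha letters 2.01 (2) and 1.59 (65), and for the hypoxia-inducible factor letters 1.33 (5) and 1.63 (62), with 5 and 49, 1 and 53, and 3 and 51 called higher. These counts describe letters in a fixed window and were not tested.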

How the data were processed

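The values are the FPKM the authors deposited, 1 file per library and 1 value per gene symbol. Per the submitters' processing notes STAR, Cufflinks, Cuffdiff and mm10 were used, with versions and settings not given in the sources used here. A directional library kit was used, per the labels' protocols. Depth is unknown, so no counting error can be given, and the precision of a value is known only from replicates.

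Log2(FPKM + 1) of genes with at least 1 FPKM in at least 2 libraries (12954 of 24341) was fitted with 1 term per group over all 16 libraries with limma 3.58.1 in R 4.3.3 and a trend of variance on level. P-values were adjusted by Benjamini-Hochberg over all genes of a comparison, and 0.05 was the limit. Adjusted p-values are from limma, those given for an alternative from its own fit. Gene positions are those of GENCODE vM21 (GRCm38), matched by symbol, and promoter windows those of RefSeq (GRCm38.p6). Where several transcripts share sequence, Cufflinks splits reads between copies, which can move values of members with pseudogenes.

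Members and lists were chosen with earlier results of these data known. Named were always the paired forms of complexes II, IV and V and Ndufa4 with Ndufa4l2, then in each comparison the 3 largest rises and falls among called members whose higher group averaged at least 5 FPKM, the highest and lowest member of each complex, members below the filter, and 2 rises and 2 falls from each other list, with Sco2 and Taco1. Other genes given were chosen after their values were seen. The labels do not say that replicate numbers pair the samples. Deviations of equally numbered libraries of different groups correlated between -0.16 and 0.13 (36 pairs). With 2 or 3 libraries per group this cannot exclude a pairing. Alternatives tried were log2(FPKM + 0.1), all genes kept, only genes averaging at least 5 FPKM, quantile normalization, median-of-ratios scaling, a table without small RNA and mitochondrial names, array weights, fits of just the groups in question, a block for the replicate number, values of doubtful status set missing, the members without Ndufa4l2, Atp5s and Atp5sl, and the omission of each library in turn and of p53KO_3dai replicates 2 and 3 together.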

Additional observations from a re-analysis of the deposited data

How the results depend on the processing

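In 390 alternative values of the counts and medians over members, 367 stayed within the limits set for each, 18 moved by more and 5 turned direction. Of 5476 alternative values of named members, 5322 kept their side of the limit, 100 lost a call, 54 gained one and 0 turned. The counts in 3dai held between 59 and 68 called in p53WT and between 58 and 71 in p53KO. Median-of-ratios scaling lowered the median differences to 1.11 and 1.29 in 3dai (p53WT and p53KO) and to 0.75 and 0.86 in G2. In p53KO_3dai the median was 1.31 with quantile normalization, 1.41 without small RNA and mitochondrial names and 1.51 without p53KO_3dai replicates 2 and 3. The G2 count in p53WT was 30 with only the groups compared. For p53WT_G2 against p53WT_3dai the count was 5 (3 higher, 2 lower) without small RNA names and 12 (3 and 9) with array weights. For p53KO_G2 against p53KO_3dai it was 4 (2 and 2) with quantile normalization, 3 with only the groups compared and 0 without p53KO_3dai replicates 2 and 3. The causes were not tested.

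Leaving out 1 library gave counts of 63 to 68 and 64 to 67 in 3dai, 32 to 54 and 40 to 56 in G2, 1 to 8 and 1 to 9 for G2 against 3dai (p53WT, then p53KO), and 0 in each genotype comparison. The medians ranged from 1.31 to 1.70 and 1.58 to 1.72 in 3dai, 0.97 to 1.29 and 1.08 to 1.48 in G2, -0.49 to -0.16 and -0.37 to -0.10 for G2 against 3dai, and -0.048 to 0.39 for the genotype difference in G2 minus that with no suffix. The few calls of G2 against 3dai turned from mostly lower to mostly higher without p53WT_3dai replicate 3 (3 and 2), p53WT_G2 replicate 1 (2 and 1), p53WT_G2 replicate 2 (1 and 0) or p53KO_G2 replicate 2 (1 and 0). An arm left with 1 library is assumed to vary like the other groups.

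With the replicate number as a block, the counts were 67 and 69 in 3dai and 44 and 53 in G2, and 0 in each genotype comparison. Of the named members' calls 1 was gained with the block (Atp5g2 in p53WT_3dai) and 1 lost (Uqcr11 in p53KO_G2). The labels give no pairing by number. Of 16 libraries 5 correlated best with a library of their own number in another group, where 36 of the pairs compared shared a number and 70 did not.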
